A study of Bubalus bubalis with 36 samples.

Results

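The miR-2284 and miR-2285 family was followed across 6 adipose depots of the buffalo. Its members were taken by name: every row of the deposited count table whose name starts with bta-miR-2284 or bta-miR-2285. That rule gave 113 of the 1682 features in the table, or 16.3% of the 695 features that carry a bovine miRNA name. The other 987 features are candidate loci without such a name.

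The study holds 36 small RNA libraries from 6 buffaloes, with 1 library from each of 6 depots in every animal. Subcutaneous fat came from the back (BSAT), sternum (SSAT) and inguinal region (IAT), and visceral fat was omental (OAT), pericardial (PCAT) or perirenal (PRAT), so 18 libraries stand in each class. All animals were weaned at 3 months of age, fattened from 15 months and slaughtered at 20 months, and breed and sex are not in the labels used here. The stated comparison is subcutaneous against visceral fat. No treatment or genotype separates the groups.

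A mature miRNA guides the Argonaute protein to messenger RNAs that carry a match to its seed, the short stretch near its 5′ end, and lowers their output. The miR-2284 and miR-2285 family is known from cattle as a large ruminant group with many genomic copies of closely similar sequence. The letters in the names separate its members, which need not be single genomic copies. How reads that match several members were assigned is not given in the sources used here, so the split of counts between similar members is uncertain. No role of a single member in fat is given as background here.

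Library totals ran from 9484589 to 13920998 counts, with a median of 12525362. Levels are given as CPM, the counts scaled to a common library total with TMM factors, unless counts are named. The 6 miRNAs listed for adipose tissue all had counts in both classes, with a summed level of 25394.2 to 45368.6 CPM in subcutaneous and 10773.5 to 93117.1 CPM in visceral libraries. Those 6 are common miRNAs and do not mark fat alone. Lists for other cell types differed between the classes: the 5 epithelial and mesothelial miRNAs, all with counts, summed to 3.71 to 77.6 CPM (median 5.97) in subcutaneous and 5.17 to 2811.1 CPM (median 128.3) in visceral libraries. The 6 leukocyte miRNAs, also all with counts, summed to 1559.1 to 25920.0 CPM (median 4466.1) and 3074.4 to 46957.5 CPM (median 8278.7). The part of these cell types in the differences below was not tested, and in bulk tissue fewer cells of a type and less RNA per cell cannot be told apart.

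The family was long in members and short in counts. Each of the 113 members had at least 1 count in some library, but the table holds no feature with a total of 0. The number of members that were searched for therefore cannot be read from it. Of the 113, 51 reached 10 counts in at least 1 library, 27 reached 1 CPM in at least 6 libraries and 20 had a count in all 36. At the other end, 12 members were seen in 1 library only, and 7 had a total of 1 count. A single library held a count for 38 to 78 members, with a median of 51.5. The median per depot was highest in pericardial fat, at 65.5 members (48 to 68), followed by omental fat at 57.0 (38 to 78), and lowest in inguinal fat at 48.0 (44 to 55), so the depot ranges overlapped.

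**Figure D1:**
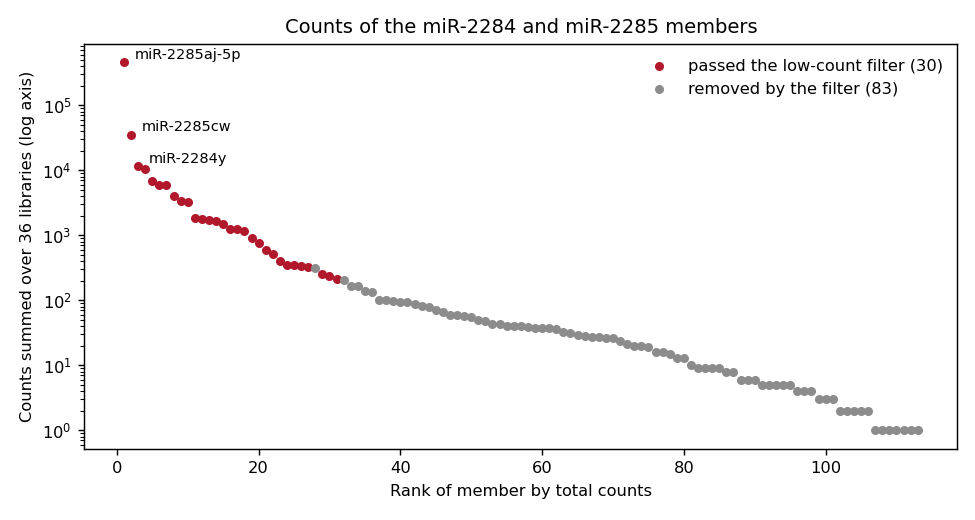
Total counts over 36 libraries (log axis) of the family's members, ordered by rank. Red points are the 30 members that passed the low-count filter, grey points are the 83 that did not, and miR-2285aj-5p stands alone at the top with 455538 counts.

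All members together held 562458 counts, or 0.126% of all counts, and between 0.0872% and 0.201% of a library. A single member, miR-2285aj-5p, held 455538 of them. Its share of the family's counts had a median of 81.1% per library and ran from 69.8% to 89.5%. By mean CPM it ranked 78 among all features and 53 among those with bovine names, so the leading member was an abundant miRNA in a family of mostly rare ones.

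The next member, miR-2285cw, held 34899 counts. It was followed by miR-2284y with 11568, miR-2285bf with 10508, miR-2285av with 6821, miR-2285bb with 5961 and miR-2284z with 5856. The top 10 were completed by miR-2285by with 4071, miR-2285dk with 3359 and miR-2284w with 3250 counts. These 10 held 96.3% of the family's counts, and members of the miR-2284 branch held 4.64%. Only 7 members averaged at least 10 CPM, from miR-2285aj-5p at 1032.4 ± 278.8 to miR-2284z at 12.5 ± 11.1 (SD, n = 36).

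Low counts decided how many members could be tested. The filter kept 30, of which 9 were miR-2284 and 21 miR-2285. It asks for about 0.798 CPM in enough libraries, and the tested members reached that level in 7 to 36 libraries. Of the 30, 24 reached it in at least 1 library of all 6 depots, and the other 6 in 4 or 5 depots. The 83 members left out had totals of 1 to 315 counts, a median of 21, and together 0.581% of the family's counts. Their summed level averaged 8.79 ± 5.98 CPM in sternal, 8.66 ± 6.44 in omental and 8.12 ± 2.59 in pericardial fat, against 5.62 ± 2.58 to 5.89 ± 2.48 in the other 3 depots (SD, n = 6 each). These differences lay within the spread between animals.

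As a share of all counts, the family took 0.137% ± 0.0352 in sternal, 0.137% ± 0.0231 in pericardial, 0.132% ± 0.0191 in back, 0.126% ± 0.0189 in inguinal, 0.116% ± 0.0231 in omental and 0.107% ± 0.0132 in perirenal fat (SD, n = 6 each). Neighbours in that order differed by less than their SDs. Subcutaneous over visceral, the ratio of mean shares was 1.1, and on the TMM scale the ratio of mean CPM was 1.27. The depot order also depended on the scale. In CPM the whole family averaged 1565.1 in sternal, 1400.8 in back, 1295.4 in inguinal, 1256.2 in pericardial, 1060.3 in omental and 1028.5 in perirenal fat. On that scale and without miR-2285aj-5p, the highest depot mean was 269.1 ± 41.8 CPM in pericardial fat. The lowest was 215.2 ± 37.3 in inguinal fat (SD, n = 6 each). The libraries of these depots overlapped, at 208.2 to 312.2 and 155.1 to 251.9 CPM.

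Subcutaneous and visceral fat differed in 4 of the 30 tested members. The most abundant, miR-2285aj-5p, was higher in subcutaneous fat, and 3 rarer members, miR-2284c, miR-2285bb and miR-2285j, were lower there. Over all 667 features tested, 16.5% were called, 7.2% higher and 9.3% lower in subcutaneous fat. The members' share, 13.3%, was near that background. The median log2 difference (subcutaneous minus visceral) was −0.35 over the 30 members, 20 of them negative, and −0.09 over all features, 364 of 667 negative. Over the 7 members averaging at least 10 CPM, in a fit limited to features of that level, the members' median was 0.18. With library totals alone the median over all features was −0.29, and 18.8% of the calls were higher in place of 43.6%. Calls are at an adjusted p under 0.05 from the quasi-likelihood test of edgeR with Benjamini-Hochberg adjustment over all features.

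**Figure D2:**
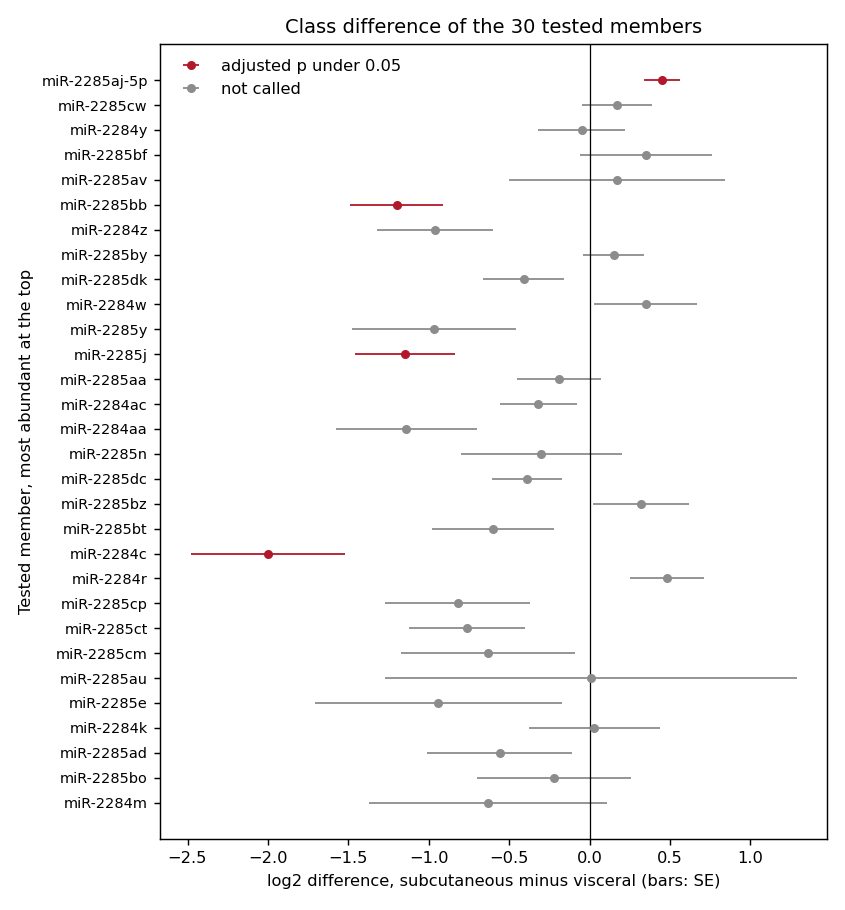
Log2 difference, subcutaneous minus visceral, of the 30 tested members, with bars of 1 SE and the most abundant member at the top. The 4 members in red passed an adjusted p of 0.05, from 0.45 for miR-2285aj-5p to −2.0 for miR-2284c.

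Back fat held 944.6, 976.9, 1065.3, 1504.3, 1281.2 and 1287.9 CPM of miR-2285aj-5p in animals 1 to 6, and sternal fat 1055.1, 1937.4, 1009.9, 1706.9, 1025.1 and 1198.8. Inguinal fat ran from 822.2 to 1329.6 with a median of 1103.4. Omental fat was low and even, at 830.6, 836.8, 778.3, 819.8, 798.3 and 853.2. Pericardial fat ran from 690.0 to 1157.6 (median 1043.6), and perirenal fat from 553.2 to 1007.5 (median 831.4). The classes overlapped, but 8 of the 18 subcutaneous libraries lay above the highest visceral one. The class means were 1193.0 ± 285.7 and 871.7 ± 153.9 CPM (SD, n = 18 each). The fitted log2 difference was 0.45 ± 0.11 (SE, edgeR, adjusted p = 0.00579), a 1.37-fold higher level, and all 6 animals showed that direction. With library totals alone the difference was 0.24 (edgeR, adjusted p = 0.0923), and with limma on log2(RPM + 1) it was 0.23 (adjusted p = 0.109). The call was also lost at a similar size with letter B libraries alone (0.42, adjusted p = 0.0806) and with counts summed per animal and class, without the animal as a block (0.45, adjusted p = 0.108) or with it (0.45, adjusted p = 0.109).

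Of the members lower in subcutaneous fat, miR-2285bb was the most abundant. Its subcutaneous libraries ran from 1.53 to 22.5 CPM with a median of 5.97, and its visceral libraries from 2.90 to 37.5 with a median of 16. All but 1 of the subcutaneous values lay at or under 15.7 CPM, the exception being back fat of animal 3 at 22.5. The fitted difference was −1.20 ± 0.29 (SE, edgeR, adjusted p = 0.00535), lower in 6 of 6 animals. Without pericardial fat it was −0.80 (edgeR, adjusted p = 0.122), and without animal 4 it was −1.01 (adjusted p = 0.0553).

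The largest class difference among the 30 members was that of miR-2284c, a rare member with 755 counts in all. Subcutaneous libraries held 0 to 29 counts (median 0.325 CPM) and visceral libraries 3 to 139 (median 1.99 CPM). The highest subcutaneous value was 2.29 CPM, in inguinal fat of animal 2, and 6 visceral libraries exceeded it. Its log2 difference was −2.0 ± 0.48 (SE, edgeR, adjusted p = 0.00532), lower in subcutaneous fat in 6 of 6 animals. The call was lost in 2 of 17 other settings. They were counts summed per animal and class without the animal as a block (−1.99, edgeR, adjusted p = 0.108), and the fit without sternal fat.

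Of miR-2285j, subcutaneous libraries held 0.327 to 4.87 CPM (median 2.18) and visceral libraries 0.332 to 13.9 (median 4.67). A group of 8 visceral libraries lay above the subcutaneous maximum, while omental fat of animal 5 was nearly as low as the lowest subcutaneous library. The difference was −1.15 ± 0.31 (SE, edgeR, adjusted p = 0.0108), again lower in subcutaneous fat in 6 of 6 animals. Without animal 4 it was −1.07 (adjusted p = 0.066). The call was lost in 4 of 17 other settings, among them counts summed per animal and class (−1.11, edgeR, adjusted p = 0.0858). With the library letter as a covariate the difference was −1.01 (adjusted p = 0.0526), and with letter B libraries alone it was −0.89 (adjusted p = 0.164). That letter, A or B, is part of the library names, and its meaning is not in the labels. Letter A marked 7 visceral and 1 subcutaneous library.

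Without sternal fat, and so with 6 fewer libraries, none of the 30 members was called, and the calls over all features dropped from 110 to 30. The 4 log2 differences had the same sign and were 0.36 for miR-2285aj-5p (edgeR, adjusted p = 0.0718), −1.54 for miR-2284c (adjusted p = 0.0972), −1.14 for miR-2285bb (adjusted p = 0.0521) and −0.98 for miR-2285j (adjusted p = 0.1).

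Among the other abundant members, miR-2284z was lower in subcutaneous fat in 6 of 6 animals without being called, at −0.96 ± 0.36 (SE, edgeR, adjusted p = 0.0656). It was called in 5 of 18 other settings, among them the animal as a block (−0.95, adjusted p = 0.0319) and DESeq2 (−0.91, adjusted p = 0.039). Of the 36 fits without a library, 5 called it: those without IAT6, OAT1, OAT3, OAT5 or PRAT1. The second most abundant member, miR-2285cw, differed by 0.17 ± 0.22, with a 95% interval of −0.26 to 0.59. No call was made for miR-2284y at −0.05 ± 0.27, miR-2285bf at 0.35 ± 0.41, miR-2285av at 0.17 ± 0.67, miR-2285by at 0.15 ± 0.19, miR-2285dk at −0.41 ± 0.25 or miR-2284w at 0.35 ± 0.32 (SE). Signs of the small values turned with other scalings or tests. For miR-2285cw the value was −0.01 and for miR-2285by −0.06 with library totals, and for miR-2284y it was 0.02 with RLE factors.

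Over the 6 depots without regard to class, 3 of the 30 members differed (10%), against 13.9% of all features. They were miR-2285bb (edgeR F test, adjusted p = 0.00848), miR-2284c (adjusted p = 0.0276) and miR-2285aj-5p (adjusted p = 0.0369). Between the highest and the lowest depot the fitted log2 range was 2.12 for miR-2285bb and 0.71 for miR-2285aj-5p. When each depot was set against the other 5, 5 of 180 pairs of member and depot were called (2.78%), against 4.27% of such pairs over all features. All 5 were higher values. Pericardial fat had 3 of 30 members, where 9.15% of all features were called and 6.75% were called higher, and sternal fat had 2, against 9.3% and 5.55%, so both counts were near the background or below it. Over the 6 depots, the test gave 0 to 2 called members when an animal was left out. The call of miR-2285bb was kept in all 36 fits without a library. It was lost without animal 2 (range 2.08, edgeR F test, adjusted p = 0.0552), 4 (1.88, adjusted p = 0.117) or 6 (2.0, adjusted p = 0.0734). With letter B libraries alone it was lost too (2.17, adjusted p = 0.0533). The call of miR-2284c was lost without any 1 of BSAT6, SSAT1, SSAT5, SSAT6, PCAT2 or PCAT6 (depot and animal), and the call of miR-2285aj-5p without SSAT2, SSAT4, IAT5 or OAT5. The latter was also lost with library totals alone (range 0.45, adjusted p = 0.248), limma (0.43, adjusted p = 0.309), no filter (0.75, adjusted p = 0.143), letter B libraries alone (0.74, adjusted p = 0.218), the letter as a covariate (0.71, adjusted p = 0.0771) and the animal as a block (0.69, adjusted p = 0.0522).

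**Figure D3:**
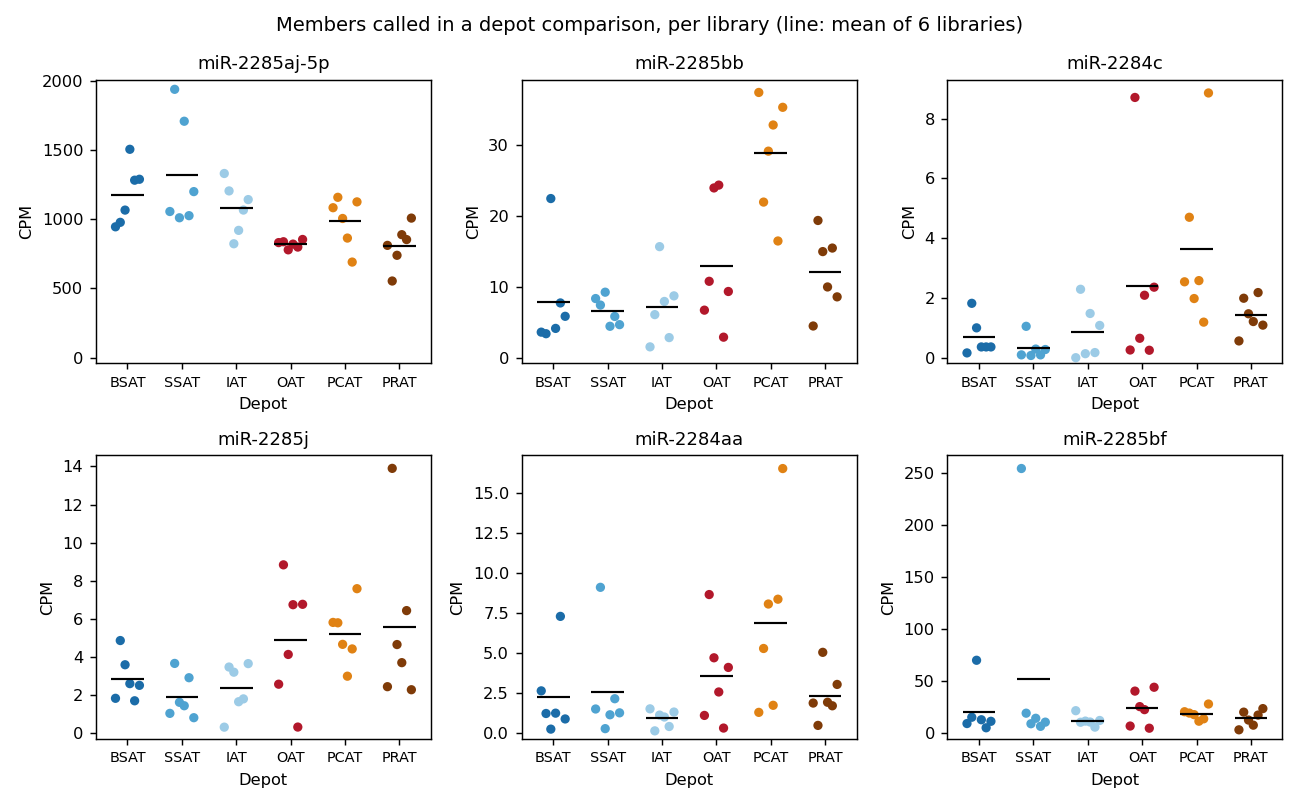
CPM per library in the 6 depots for the 6 members called in any depot comparison, with a line at the mean of 6 libraries. Pericardial values of miR-2285bb run from 16.5 to 37.5, and the sternal mean of miR-2285bf rests on 1 library at 254.3.

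Pericardial fat, the depot around the heart sac, had the clearest member, miR-2285bb. It stood at 37.5, 22, 29.2, 32.9, 16.5 and 35.4 CPM in animals 1 to 6, from 265 to 504 counts. The other 30 libraries ran from 1.53 to 24.4 with a median of 7.85, and 4 of the 6 pericardial libraries lay above all of them. The mean was 28.9 ± 8.15 in pericardial fat (SD, n = 6) and 9.37 ± 6.40 elsewhere (SD, n = 30). The fitted log2 difference from the other 5 depots was 1.68 ± 0.34 (SE, edgeR, adjusted p = 0.00101), higher in 6 of 6 animals. Over every alternative tried it lay between 1.4 and 1.98 and was called.

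Also higher in pericardial fat was miR-2284c, at 2.54, 4.70, 1.98, 2.58, 1.19 and 8.86 CPM in animals 1 to 6. The other 30 libraries ran from 0.0 to 8.71 with a median of 0.605. Omental fat of animal 2, at 8.71, was the only one of them above 4.70. The difference was 1.99 ± 0.54 (SE, edgeR, adjusted p = 0.0135), higher in 6 of 6 animals, and without the pericardial library of animal 6 it was 1.41 (adjusted p = 0.193). Without that of animal 2 it was 1.78 (adjusted p = 0.0644), and it was lost without animal 4, 5 or 6.

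The third, miR-2284aa, held 1.31, 5.29, 8.06, 1.75, 8.36 and 16.5 CPM in pericardial fat of animals 1 to 6. The other 30 libraries had a median of 1.43 and a maximum of 9.10, and 1 pericardial library, that of animal 6, lay above that maximum. The difference was 1.67 ± 0.51 (SE, edgeR, adjusted p = 0.0299), higher in 5 of 6 animals. It was lost when any 1 of 24 libraries was left out, and without pericardial fat of animal 6 it was 1.15 (adjusted p = 0.272). The call was also lost without animal 1, 3, 4, 5 or 6, and in 4 of 8 other settings. They were RLE factors (1.52, edgeR, adjusted p = 0.0584), DESeq2 (1.52, adjusted p = 0.0504), letter B libraries alone (1.35, edgeR, adjusted p = 0.319) and the animal as a block (1.53, edgeR, adjusted p = 0.0723).

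Epithelial and mesothelial miRNAs varied within pericardial fat. Their summed level was 5.17, 330.1, 505.8, 82.2, 212.4 and 486.5 CPM in animals 1 to 6. Animal 1 had the lowest sum, with 1 of the 5 miRNAs at 0, and the highest miR-2285bb, at 37.5 CPM. In miR-2284aa animals 1 and 4, which had the lowest sums, were also the lowest, while miR-2284c was lowest in animal 5, at 1.19 CPM. Leukocyte miRNAs summed to 3074.4 to 9906.2 CPM in the 6 pericardial libraries, again lowest in animal 1, and muscle miRNAs to 83.5 to 303.4 CPM. The part of these lists in the pericardial differences was not tested.

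The 2 members called in sternal fat were miR-2285aj-5p and miR-2285bf. The first was higher by 0.46 ± 0.15 (SE, edgeR, adjusted p = 0.0432) in 6 of 6 animals. Its sternal libraries all lay above the median of the other 30 libraries, 931.8 CPM, and those of animals 2 and 4, at 1937.4 and 1706.9, lay above all of them. Erythroid miRNAs, 3 of 3 with counts, had their lowest depot median in sternal fat, at 17040.5 CPM, and their highest in back fat, at 84584.9. They summed to 21108.0, 12973.0, 35033.0, 8230.6, 11234.6 and 30782.2 CPM in sternal fat of animals 1 to 6, and their part in this difference was not tested. Without the library of animal 4 the difference was 0.37 (adjusted p = 0.184), and without that of animal 2 it was 0.39 (adjusted p = 0.0758). The call was also lost without the inguinal library of animal 5 (0.45, adjusted p = 0.0538), and without animal 2, 3, 4 or 6. It was lost in 6 of 9 other settings. They were library totals alone (0.22, edgeR, adjusted p = 0.289), limma (0.2, adjusted p = 0.392) and no filter (0.53, edgeR, adjusted p = 0.133). The others were the letter as a covariate (0.45, edgeR, adjusted p = 0.0708), letter B libraries alone (0.52, adjusted p = 0.0701) and the animal as a block (0.44, adjusted p = 0.0608).

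The second rested on 1 library. In animals 1 to 6 the sternal level of miR-2285bf was 254.3, 19.4, 9.26, 14.5, 6.77 and 10.8 CPM. Elsewhere it ran from 3.43 to 70.2 with a median of 13.6. The fitted difference of 1.58 ± 0.49 (SE, edgeR, adjusted p = 0.0393) went with 3 of 6 animals higher, and without the sternal library of animal 1 it was −0.43 (adjusted p = 0.656). That library held 2675 counts of miR-2285bf, and its leukocyte and its kidney and gut miRNAs had the highest sums of the 6 sternal libraries, at 6695.6 CPM (others 1559.1 to 5945.4) and 1316.4 CPM (others 506.9 to 934.0). Its epithelial sum was 6.94 (others 5.25 to 26.3) and its muscle sum 36.6 (others 35.9 to 58.2). Their part in its miR-2285bf level was not tested.

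By edgeR on all 36 libraries, with TMM factors, the low-count filter and no term but depot, no member was called in the other 4 depots. At an unadjusted p under 0.05 there were 2 of 30 in back, 1 in inguinal, 6 in omental and 3 in perirenal fat. Over all features 12.6%, 6.9%, 13.9% and 13.9% had such a p in these depots, and 2.25%, 0.3%, 1.5% and 3.15% were called after adjustment.

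As many members were called over animals as between the classes of fat, but by unlike tests. The first was an F test with depot in the model, and the second a single contrast without the animal. With depot in the model, 4 of 30 members (13.3%) differed between the 6 animals, against 11.7% of all features. They were miR-2285bt, miR-2284c, miR-2285cw and miR-2284m, and miR-2284c was the only one also called in a depot comparison. At an unadjusted p under 0.05 there were 13 of 30 (43.3%), against 31.8% of all features.

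**Figure D4:**
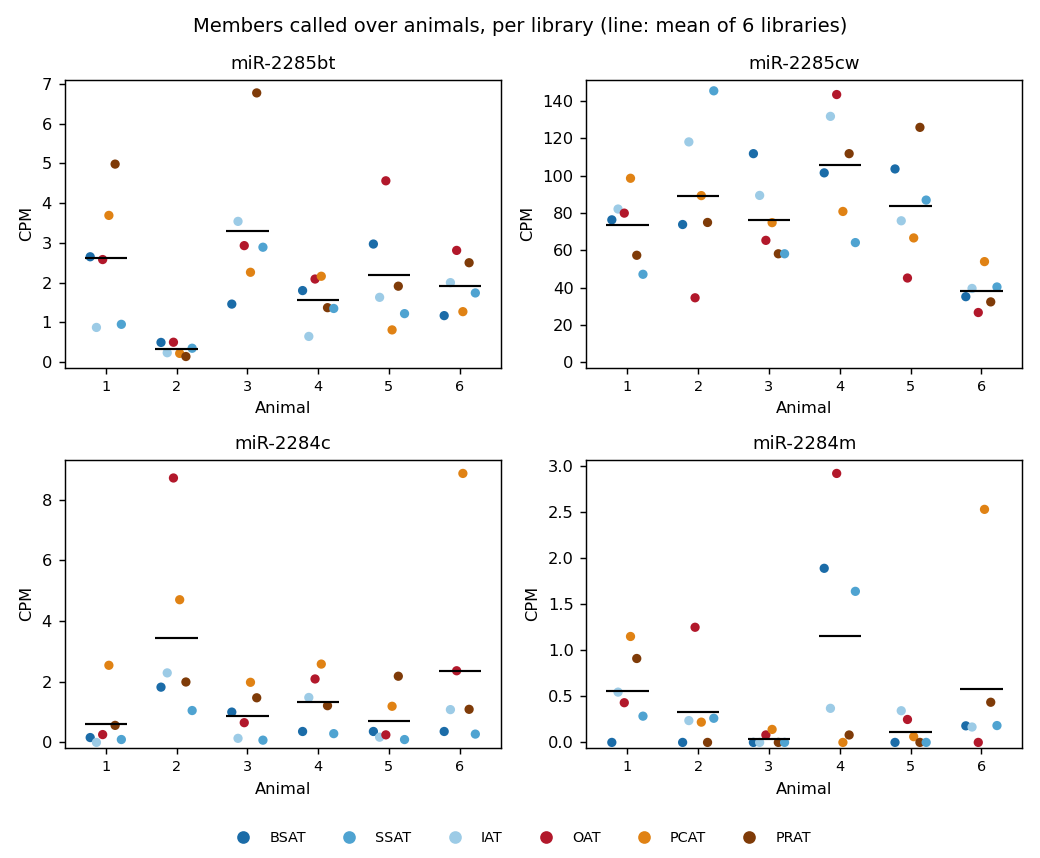
CPM per library for the 4 members that differed between animals, coloured by depot, with a line at the mean of 6 libraries. All 6 values of miR-2285bt in animal 2 lie at or under 0.501, and those of miR-2285cw in animal 6 lie between 26.6 and 53.9.

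In animal 2, miR-2285bt was low in every depot. Its level there was 0.496 in back, 0.350 in sternal, 0.237 in inguinal, 0.501 in omental, 0.220 in pericardial and 0.142 in perirenal fat, from 2 to 8 counts. The 30 libraries of the other animals ran from 0.647 to 6.77 CPM, from 7 to 106 counts. Animal 2 did not overlap with them in CPM, while in counts its highest library (8) passed the lowest of the others (7). The means were 0.324 ± 0.150 (SD, n = 6) and 2.32 ± 1.36 (SD, n = 30). The library totals of animal 2, 12093073 to 12970407 counts, lay inside the range of the others. The fitted log2 range over animals was 3.31 (edgeR F test, adjusted p = 0.000449). Without animal 2 it was 1.15 (adjusted p = 0.297).

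Animal 6 had the lowest miR-2285cw in 6 of 6 depots. The values were 35.1 in back, 40.3 in sternal, 39.5 in inguinal, 26.6 in omental, 53.9 in pericardial and 32.3 in perirenal fat. Among the other 30 libraries 3 lay under 53.9 CPM: sternal fat of animal 1 at 47.1, omental fat of animal 2 at 34.5 and omental fat of animal 5 at 45.1. The mean was 38.0 ± 9.29 CPM in animal 6 (SD, n = 6) and 85.7 ± 28.6 in the others (SD, n = 30). Over all animals the fitted range was 1.51 (edgeR F test, adjusted p = 0.0191), and without animal 6 it was 0.53 (adjusted p = 0.598). Without the perirenal library of animal 6 it was 1.46 (adjusted p = 0.0522). Over the 6 depots the same member was not called (fitted range 0.44, adjusted p = 0.937).

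Of miR-2284c, animal 2 had the highest value in 4 of 6 depots and a mean of 3.43 ± 2.87 CPM, against 0.603 ± 0.970 in animal 1 (SD, n = 6 each). The fitted range was 3.22 (edgeR F test, adjusted p = 0.00526). Without animal 2 it was 2.00 (adjusted p = 0.156). The fourth member, miR-2284m, had a count in 24 of 36 libraries and at most 42. Animal 4 held 1.89 CPM in back, 1.64 in sternal and 2.92 in omental fat but 0.0 in pericardial fat, and animal 3 held at most 0.141. Its call (edgeR F test, adjusted p = 0.0441) was lost when any 1 of 19 libraries was left out.

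The fifth most abundant member, miR-2285av, was present at either of 2 levels. In 24 libraries it had 82 to 556 counts (5.80 to 40.9 CPM), and in the other 12 it had 1 to 13 counts (0.0813 to 1.4 CPM). Among splits with at least 6 libraries on each side, that gap of 1.92 on the log2 CPM scale was the widest of the 30 tested members. The next was 0.69 for miR-2284aa. Splits with fewer libraries on a side were not ranked, such as miR-2285bf with 254.3 CPM in SSAT1 and 70.2 in the next library, BSAT3. The division was made after its values were seen, and no test was made on it.

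**Figure D5:**
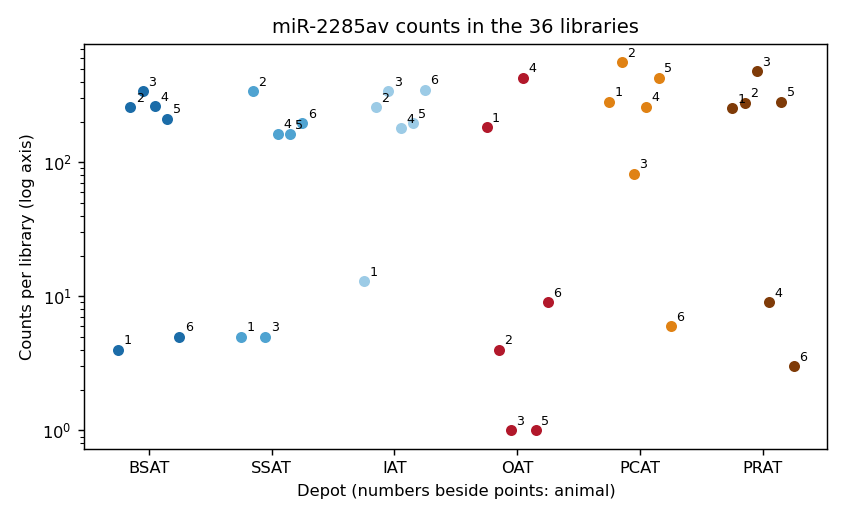
Counts of miR-2285av (log axis) in the 36 libraries by depot, with the animal's number beside each point. No library lies between 13 and 82 counts, and every depot has points on both sides.

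The 12 low libraries came from all depots and all animals: 4 from omental, 2 each from back, sternal and perirenal, and 1 each from inguinal and pericardial fat. Animal 6 gave 4 and animal 1 gave 3 of them, animal 3 gave 2, and animals 2, 4 and 5 gave 1 each. In inguinal fat the values were 1.4, 20.4, 22.7, 16.6, 16.8 and 28.9 CPM in animals 1 to 6, and in omental fat 15.7, 0.251, 0.0813, 29.7, 0.0830 and 0.685. Thus 1 animal could be high in one depot and low in another. Library totals overlapped, at 9484589 to 13417694 counts in the low and 11175382 to 13920998 in the other libraries. Of the 12, 2 carried letter A, against 8 of all 36. The member was called neither over depots (edgeR F test, adjusted p = 0.944) nor over animals (adjusted p = 0.876).

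Several members moved together over the 36 libraries. Spearman correlations of log2 CPM over all 435 pairs of tested members had a median of 0.16 and ran from −0.63 to 0.80, with 28 pairs over 0.5. The closest pair was miR-2284c with miR-2285j at 0.80, followed by miR-2284c with miR-2284z at 0.75 and miR-2284z with miR-2285j at 0.74. The visceral-high miR-2285bb followed miR-2284z at 0.69 and miR-2285j at 0.68. At the other end, miR-2285cw with miR-2285dk and miR-2285bt with miR-2285bz both stood at −0.63. The points share animals, library totals and scaling, and similar members can share reads, so these values are descriptive. After the depot means were removed the median was 0.17 and the range −0.66 to 0.78.

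The share of members that passed the filter is set here beside that of other features, with no test of the difference. Of the family 30 of 113 passed (26.5%), against 338 of 487 other named miRNAs (69.4%) and 278 of 987 candidate loci (28.2%). The list of other miRNAs with bovine numbers held the names bta-miR-2286 to bta-miR-2487 and bta-miR-2881 to bta-miR-2904. Like this family, these carry numbers first given in cattle. Bovine names outside these ranges were counted with the other named miRNAs. The list had 21 of 95 tested (22.1%) and 0.0137% of all counts. In the class comparison 1 of those 21 (4.76%), 69 of the 338 (20.4%) and 36 of the 278 (12.9%) were called, against 13.3% of the family. Median class differences were −0.27, −0.00 and −0.15 for these lists and −0.35 for the family.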

How the data were processed

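The authors deposited a table of raw whole-number counts, 1 row per miRNA and a column for each library, and a separate table of RPM. Recomputed from counts and library totals, the deposited RPM differed by at most 4.79e-06. Kits are per the labels' protocols (RNeasy Lipid Tissue Mini Kit, TruSeq RNA LT kit). The submitters' processing notes name DESeq2 1.24.0 without saying what it did. The sources used here do not give the aligner, miRNA caller or genome build. No column of another sample was present (0). No sequences of the members were used here.

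Counts were tested in R 4.3.3 with edgeR 4.0.16 (TMM factors 0.745 to 1.26, filterByExpr with a minimum count of 10, estimateDisp, robust glmQLFit, glmQLFTest), over all 667 features that passed, with 1 coefficient per depot and 30 residual degrees of freedom. The class contrast was the mean of 3 subcutaneous minus the mean of 3 visceral depots, each single depot was compared with the other 5 averaged, and animals were tested in a model with depot. Tests were two-sided, with Benjamini-Hochberg adjustment over all features and a threshold of 0.05. The SE was taken as the log2 difference over the root of its F statistic. Directions per animal come from means of log2 CPM (prior count 2).

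The same 6 animals gave all depots, so animal numbers pair the libraries: within an animal, deviations from depot means had a mean correlation of 0.198 (64 of 90 pairs over 0.1), and between animals one of −0.0392. No 2 libraries agreed within sampling noise (smallest chi-square per degree of freedom 826.2). Library totals of 9484589 to 13920998 counts set the precision, and values under about 10 counts carry a large counting error. Intervals cover the spread between these libraries only.

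Named were the 10 members with the highest mean CPM and those called in any comparison (at most 10 by p over depots or animals, and 3 per depot and direction), with miR-2285bz named for a correlation after its values were seen. Members and lists were chosen with earlier results of these data known. The fits were repeated with DESeq2 1.42.0, with limma 3.58.1 on log2(RPM + 1) and with RLE factors or unscaled totals. Others had no filter or kept only features averaging at least 10 CPM. The library letter was tried as a covariate, letter B libraries were fitted alone, and the animal was tried as a block. Further fits used 2 groups of 18 or counts summed by animal and class, or left out each animal, library or depot. The summed counts with the animal as a block were added after the data were seen.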

Additional observations from a re-analysis of the deposited data

Results flagged for a closer look

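For the 15 named members, each depot's 6 libraries were searched for 1 that stood apart on the log2 CPM scale by Dixon's criterion, which sets the gap to the nearest library against the whole range. Of 90 groups, 6 held such a library, and chance gives about 1 in 20. The sternal library of animal 1 held 254.3 CPM of miR-2285bf, against 6.77 to 19.4 in the other 5 sternal libraries. Back fat of animal 6 held 35.1 CPM of miR-2285cw, against 73.8 to 111.8 in the other 5. Inguinal fat of animal 1 was low in both miR-2285av, at 1.4 CPM against 16.6 to 28.9, and miR-2285j, at 0.327 CPM (3 counts) against 1.66 to 3.66. Sternal fat of animal 5 held 2.73 CPM of miR-2285dk, against 5.42 to 7.70. Back fat of animal 4 held 1.89 CPM of miR-2284m (21 counts), against 0.0 to 0.180.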

How the results depend on the processing

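The class comparison called 4 members. Limited to features averaging at least 10 CPM it called 2, in a fit that left out miR-2284c and miR-2285j, which average less. Letter B libraries alone gave 2, counts summed per animal and class gave 1, and the fit without the sternal depot gave 0. Leaving out an animal gave 2 to 5 and leaving out a library 4 to 6. For the 3 called over depots, letter B libraries gave 0, DESeq2 gave 6, leaving out an animal gave 0 to 2 and leaving out a library 2 to 4. For the 5 pairs of member and depot, no filter gave 13 and letter B libraries 1, and a mean of at least 10 CPM, the letter as a covariate and limma gave 3 each. Leaving out an animal gave 1 to 5 and leaving out a library 4 to 8. For the 4 called over animals, no filter gave 7, a mean of at least 10 CPM 1 and DESeq2 10, and leaving out an animal gave 3 to 6 and a library 3 to 7. With the animal as a replicate block 5 members were called by class, 2 over depots and 3 pairs of member and depot. With it, miR-2285bf, miR-2284aa and miR-2285aj-5p (sternal 0.44, edgeR, adjusted p = 0.0608) lost depot calls, and miR-2284z gained its class call. The pericardial calls of miR-2285bb and miR-2284c were kept, so the 3 pairs included a pair that was not among the 5. The causes were not tested.

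Class differences that were not called changed sign as follows. For miR-2285cw the value was −0.01 with library totals and −0.02 with limma, and for miR-2285by −0.06 and −0.03. For miR-2284y it was 0.02 with RLE factors, 0.00 with no filter, 0.01 with a mean of at least 10 CPM, 0.00 with limma, 0.02 with DESeq2, 0.12 with the block, 0.13 with summed counts and the block, and 0.02, 0.01, 0.05 and 0.03 without the sternal, inguinal, omental and pericardial depots. It ran from −0.22 to 0.31 without an animal and from −0.10 to 0.15 without a library. For miR-2285bf it was −0.29 with limma, 0.00 with the block, −0.04 with summed counts and the block and −0.23 without the sternal depot, from −0.49 to 0.67 without an animal and from −0.34 to 0.46 without a library. For miR-2285av it was −0.04 with library totals and −0.25 without the omental depot, from −0.10 to 0.54 without an animal and from −0.01 to 0.55 without a library. The sternal value of miR-2285bf ran from −0.48 to 1.98 without an animal and from −0.43 to 1.94 without a library. With the block it was 0.95 (adjusted p = 0.364).

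With limma 19.3% of the class calls over all features were higher. A mean of at least 10 CPM removed the members averaging less, so those have no value there. Most members rest on few counts, where counting error is a large part of a value.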
